A study of Mus musculus with 14 samples.

Results

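Glutamate transport and glutamine synthesis were followed in 9 mouse genes, taken by their symbols from the 20858 symbols used in the nucleus accumbens tables and from the 29239 symbols with a read in a table of sorted oligodendrocytes. Glutamate released at synapses is taken up from the space around them by transporters in the cell membrane, mostly those of astrocytes. Astrocytes turn the glutamate into glutamine with glutamine synthetase and pass the glutamine to neurons, which make glutamate or GABA from it again. The 9 genes were the uptake transporters Slc1a1, Slc1a2 and Slc1a3, the synthetase Glul, the glutamine transporters Slc38a1, Slc38a2 and Slc38a3, and the vesicular transporters Slc17a6 and Slc17a7, which load glutamate into synaptic vesicles. All 9 were found in both data sets.

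The animals were male C57BL/6 mice that received an injection of morphine sulfate or of saline (mock) into the peritoneum, with no dose or collection time in the labels. The nucleus accumbens, a part of the ventral striatum, was profiled by Drop-seq, which captures single cells in droplets with barcoded beads, in 4 morphine and 4 mock pools of 2 mice each. Pools 3 and 4 of each group came from mice of 78 to 82 days and pools 1 and 2 from mice of 37 to 45 days. Oligodendrocytes, the myelin-forming cells, were collected by cell sorting from the whole brain at 70 days of age and sequenced in bulk, with 3 morphine and 3 mock libraries. Nothing in the labels says how many mice gave each sorted library.

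In the accumbens, 33216 cells were kept with 6703052 to 24160207 UMIs per pool, a UMI marking 1 captured transcript. The median mitochondrial share per cell was 4.82% to 7.01% in the morphine pools and 3.02% to 4.61% in the mock pools, and its part in the results was not tested. A gate on marker genes that used none of the 9 genes put 24614 cells into classes, of which 14 were tested. Each class stands for cells like those its markers name. Excitatory neurons numbered 4 to 420 cells per pool and ependymal cells 7 to 69, so morphine pool 3 was dropped for the first class and mock pool 3 for the second. There were 40 barcodes shared by more than 1 pool. Levels are given as CPM, counts per 1000000 of the UMIs or reads in genes of that pool, class or library. Reads in genes numbered 18306640 to 23456702 in the sorted morphine libraries and 14989118 to 21564115 in the sorted mock libraries. Oligodendrocyte markers summed to 62170 to 63110 CPM in the morphine and 59080 to 61720 CPM in the mock libraries, with no overlap. Of these 12 markers, edgeR's test of morphine against mock called 2 higher (Mobp and Hapln2) and 4 lower (Ermn, Ugt8a, Opalin and Gjb1), and their part in the results was not tested.

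The uptake transporters were split between cell classes. Slc1a2, the main glutamate transporter of the forebrain, averaged 7199 ± 764 CPM in astrocytes (SD over 8 pools) and 742 ± 196 CPM in oligodendrocyte precursors, the next class. Excitatory neurons followed with 605 ± 149 CPM over 7 pools, and the pools of these 2 classes overlapped. In astrocytes the morphine pools 1 to 4 had 5970, 6530, 7740 and 6880 CPM of Slc1a2 and the mock pools 6990, 7300, 7960 and 8240 CPM. Every one of these values lay above every pool of every other class, and the 2 treatment groups overlapped. Slc1a3, the second astrocyte transporter and also a gene of radial glia, averaged 4419 ± 371 CPM in astrocytes and 386 ± 143 CPM in ependymal cells. Microglia held 380 ± 225 CPM and oligodendrocyte precursors 298 ± 67.5 CPM of Slc1a3, with pools that overlapped those of ependymal cells.

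Slc1a1, known as the glutamate transporter of neurons, was highest in newly formed oligodendrocytes, a stage between precursor and mature cell. Its level there was 404, 397, 563 and 450 CPM in morphine pools 1 to 4 and 269, 324, 497 and 372 CPM in mock pools 1 to 4. The mean over the 8 pools was 409.5 ± 93.7 CPM, from 339 UMIs in 252 cells. Endothelial cells held 139 ± 29.3 CPM and oligodendrocyte precursors 96.1 ± 57.4 CPM, and the pools of these 2 classes overlapped. The neuron classes lay close together, with 62.7 ± 9.55 CPM in D2 medium spiny neurons, 58.9 ± 14.4 CPM in excitatory neurons, 58.8 ± 13.7 CPM in interneurons and 56.2 ± 13.8 CPM in D1 medium spiny neurons. Mature oligodendrocytes held 15.7 ± 6.49 CPM, so the newly formed cells lay far above them in all 8 pools. Astrocytes, the class with most Slc1a2 and Slc1a3, held 8.42 ± 4.2 CPM of Slc1a1.

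**Figure D1:**
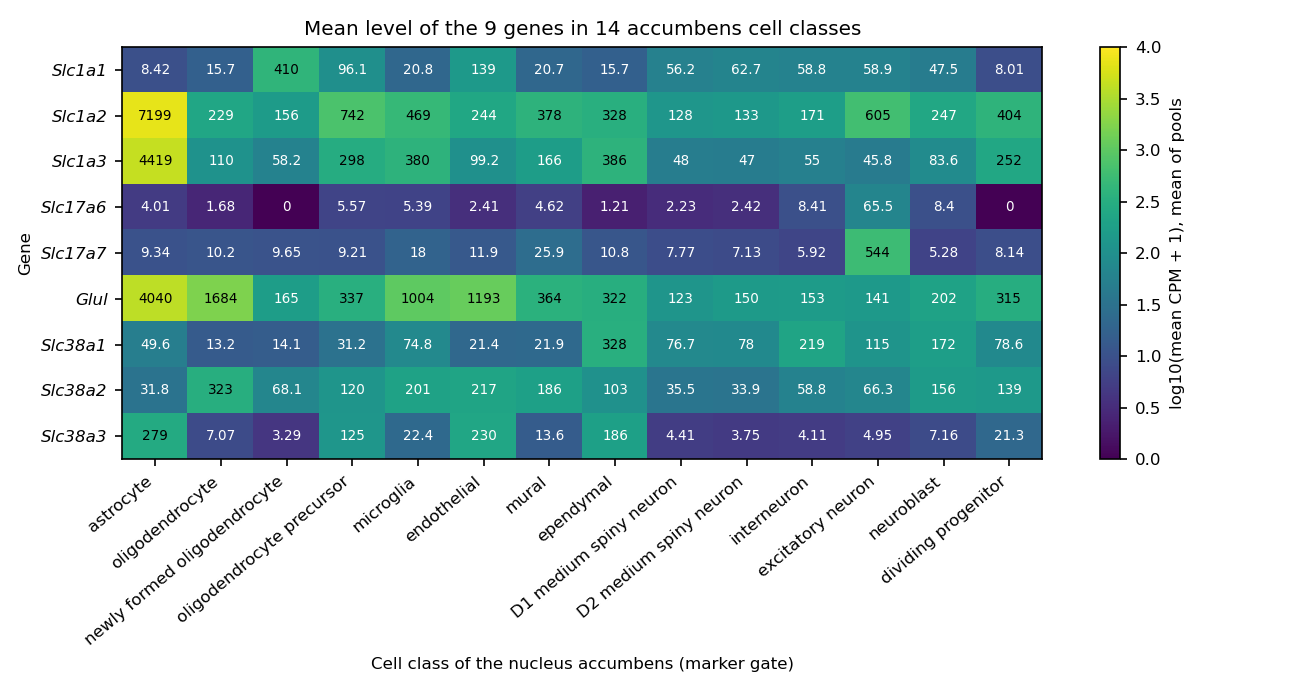
Mean level of each gene (down the page) in each of 14 accumbens cell classes (across), as printed CPM values, means of the 7 or 8 pools with at least 10 cells, and as colour on a log10 scale. Slc1a2, Slc1a3 and Glul peak in astrocytes, Slc1a1 in newly formed oligodendrocytes, and Slc17a6 and Slc17a7 in excitatory neurons.

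**Figure D2:**
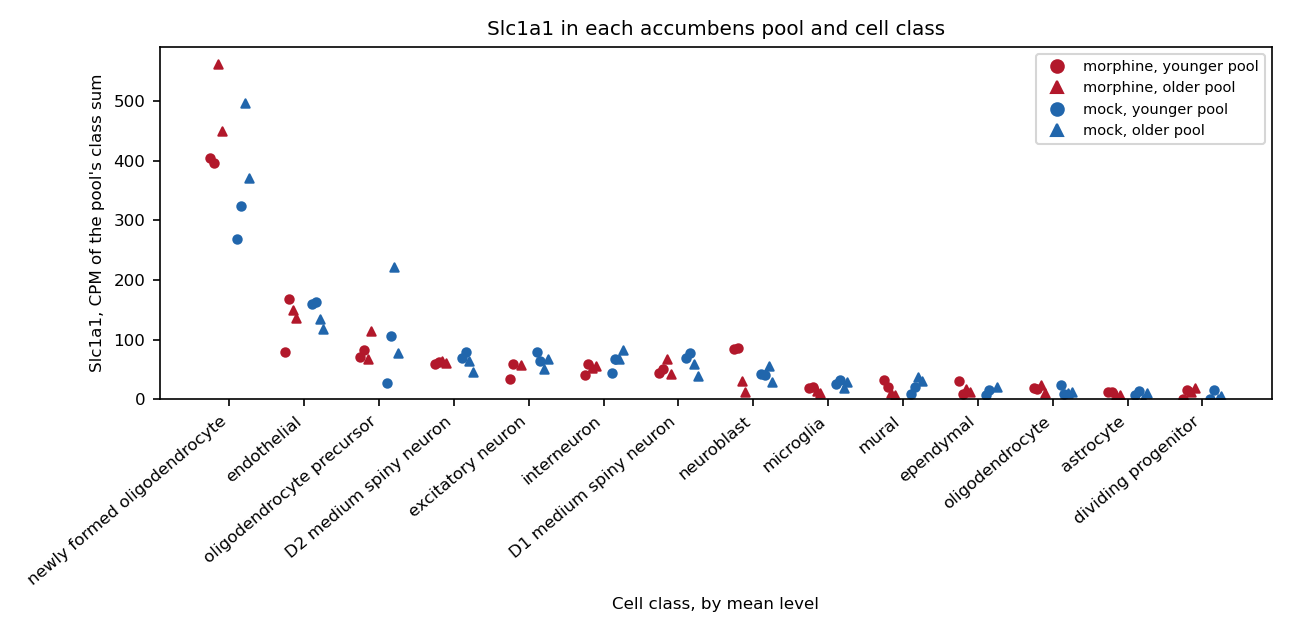
Slc1a1 level in CPM (vertical axis) for each pool in 14 cell classes ordered by their mean; red points are morphine pools and blue points mock pools, circles younger and triangles older mice. The newly formed oligodendrocytes of the 8 pools lie between 269 and 563 CPM, above every pool of every other class.

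Glul, which encodes glutamine synthetase, was highest in astrocytes at 4040 ± 271 CPM and stood at 1684 ± 393 CPM in mature oligodendrocytes. In oligodendrocytes the morphine pools 1 to 4 had 1580, 2390, 1430 and 1770 CPM and the mock pools 1100, 1870, 1420 and 1910 CPM, which overlapped. Endothelial cells had 1193 ± 144 CPM and microglia 1004 ± 201 CPM, and neighbours in the order from oligodendrocytes to microglia overlapped. The next class, mural cells, held 364 ± 109 CPM, below every pool of the microglia. Newly formed oligodendrocytes had 165 ± 108 CPM, so Glul and Slc1a1 had opposite orders in these 2 stages.

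The 3 glutamine transporters had 3 different orders. Slc38a3, which releases glutamine from astrocytes, averaged 279 ± 81.2 CPM in astrocytes, 229.5 ± 90.3 CPM in endothelial cells, 186 ± 67.2 CPM in ependymal cells and 125 ± 45.7 CPM in oligodendrocyte precursors. Neurons of all 4 neuron classes held 3.76 to 4.95 CPM of it. Slc38a1, which brings glutamine into neurons, was highest in ependymal cells at 328 ± 111 CPM over 7 pools, then in interneurons at 219 ± 43.5 CPM and neuroblasts at 172 ± 56.6 CPM. The D1 and D2 medium spiny neurons held 76.7 ± 13.9 and 78.04 ± 11.4 CPM of Slc38a1. Slc38a2, a related sodium-coupled transporter, was highest in mature oligodendrocytes at 323 ± 49.3 CPM, followed by endothelial cells at 217 ± 132 CPM and microglia at 201 ± 86.1 CPM, all 3 with overlapping pools.

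The vesicular transporters marked the excitatory neurons, a class gated without them. Slc17a7 averaged 544.5 ± 177 CPM there over 7 pools, and no other class averaged more than 25.9 CPM. Slc17a6 averaged 65.5 ± 29.5 CPM in excitatory neurons and at most 8.41 CPM elsewhere, and it had 0 UMIs in the 252 newly formed oligodendrocytes and the 303 dividing progenitors, which allows up to 3.46 and 2.63 CPM (3 counts, counting error only).

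Each gene's highest class was set against the next by mean log2 CPM, pool by pool, with an exact sign-flip permutation test over the pools, two-sided, adjusted over the 9 genes. For 8 of the 9 genes the difference passed an adjusted p of 0.05. The classes were picked on these same pools, so the test says how steadily the pools share the order. The log2 difference was 3.58 for Slc1a3, 3.30 for Slc1a2, 1.57 for Slc1a1, 1.29 for Glul and 0.58 for Slc38a1, each higher in every pool compared (adjusted exact p = 0.0201). It was 4.04 for Slc17a7 and 2.29 for Slc17a6, where the next class held few UMIs and the value depends on the prior count of 1. Slc38a2 was higher in oligodendrocytes in 7 of 8 pools (0.72, adjusted exact p = 0.0264). Slc38a3 did not pass, with 7 of 8 pools higher in astrocytes than in endothelial cells (0.30, exact p = 0.203). The smallest p that 8 pools allow is 0.00781, and 7 pools allow 0.0156. With classes taken from Leiden clusters, which named 29334 cells, the difference of Slc1a1 to endothelial cells was 0.62, still in 8 of 8 pools.

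Because free RNA of a broken cell can enter any droplet, the genes high in astrocytes were set beside 14 astrocyte markers in every class. These levels come from UMIs summed over the pools of a class, so their percentages differ somewhat from those of the pool means above. In mature oligodendrocytes the markers stood at a median of 2.17% of their astrocyte level and at most at 15.7%, for Htra1. Slc1a2 at 3.08% and Slc1a3 at 2.36% lay among them, while Glul stood at 44.3%. Glul also lay above all 14 markers in microglia at 23.7% and in endothelial cells at 29.6%. Slc38a3 lay above all 14 in endothelial cells at 78.6%, in ependymal cells at 67.2% and in oligodendrocyte precursors at 43.8%. In excitatory neurons Slc1a2 stood at 8.46%, against a marker median of 0.585% and a maximum of 3.94%, whereas Slc1a3 at 0.527% lay among the markers. In D1 and D2 medium spiny neurons Slc1a2 was at 1.48% and 1.52%, inside the marker range. The gate itself leaves out cells with high astrocyte scores from the other classes. Classes from clusters set that limit on the mean scores of a cluster and not on each cell. There the values were 54.8% for Glul in oligodendrocytes, 88.6% for Slc38a3 in endothelial cells and 10.5% for Slc1a2 in excitatory neurons. These again lay above all 14 markers, whose highest in these classes stood at 20.2%, 8.6% and 5.4%.

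**Figure D3:**
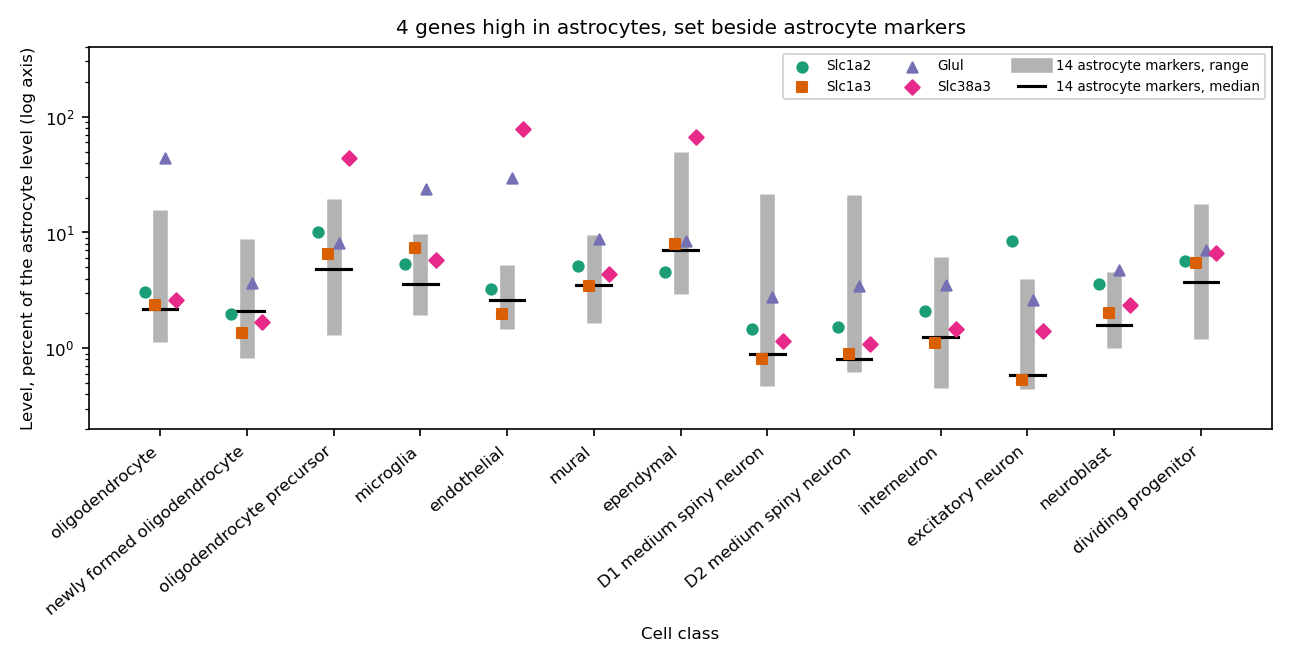
Level of Slc1a2, Slc1a3, Glul and Slc38a3 in 13 cell classes as a percentage of the level in astrocytes (log axis); grey bars span the 14 astrocyte markers and black lines give their median. Glul in oligodendrocytes (44.3%), Slc38a3 in endothelial cells (78.6%) and Slc1a2 in excitatory neurons (8.46%) lie above the grey bars. Levels are from UMIs summed over the pools of a class.

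In the sorted oligodendrocytes all 9 genes were tested, morphine against mock, and 2 passed an adjusted p of 0.05, Slc1a1 upward and Slc1a3 downward. Of all 15750 genes tested, 8.1% were called higher and 6.68% lower, so the count for these genes is near that of genes at large. Slc1a1 had 15.9, 20.6 and 18.2 CPM in the morphine libraries, against 7.65, 6.87 and 9.96 CPM in the mock libraries. The groups were far apart, with means of 18.2 ± 2.36 CPM in morphine and 8.16 ± 1.6 CPM in mock libraries (SD, n = 3 each). The fitted log2 fold change was 1.18 (SE 0.129, adjusted p = 6.46e-07), or 2.26-fold, and it kept its call in each of 10 alternative fits. Slc1a3 had 66.5, 60.4 and 64.3 CPM in morphine libraries, against 84.7, 76.9 and 76.1 CPM in mock libraries. The groups did not overlap and the fitted difference was small, -0.29 (SE 0.07, adjusted p = 0.00528). Without mock library 1, and likewise without morphine library 2, Slc1a3 lost its call (adjusted p = 0.0884 in both). The authors' deposited table gives log2 fold changes of 1.134 for Slc1a1 (adjusted p = 1.29e-11) and -0.256 for Slc1a3 (adjusted p = 0.0308).

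The other 7 genes did not pass. Glul averaged 1395 ± 90.1 CPM in morphine and 1355 ± 183 CPM in mock libraries, a log2 fold change of 0.07 (SE 0.071, adjusted p = 0.617). Slc1a2 averaged 408 ± 14.5 CPM in morphine and 433 ± 35.9 CPM in mock libraries (-0.06, adjusted p = 0.614), and Slc38a2 409 ± 11.2 CPM in morphine and 396 ± 24.9 CPM in mock libraries (0.07, adjusted p = 0.518). Slc38a1 (0.05) and Slc38a3 (-0.20, adjusted p = 0.301) also overlapped between the groups. Slc17a6 rested on 11 to 14 reads per morphine library and 16 to 36 per mock library, and Slc17a7 on 31 to 39 per morphine library and 31 to 52 per mock library. In CPM both were lower in every morphine library than in any mock library and did not pass (adjusted p = 0.13 and 0.478). Altogether 4 of the 9 genes had groups that did not overlap, against 29.1% of all genes tested. The median log2 fold change of the 9 genes was -0.06, against -0.02 for all genes. Per kilobase of exon, the morphine libraries held 420 CPM of Glul, 46.2 of Slc38a2, 31.1 of Slc1a2, 7.46 of Slc1a3 and 2.21 of Slc1a1, and the mock libraries, in the same order of genes, 408, 44.8, 33.0, 9.28 and 0.988.

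**Figure D4:**
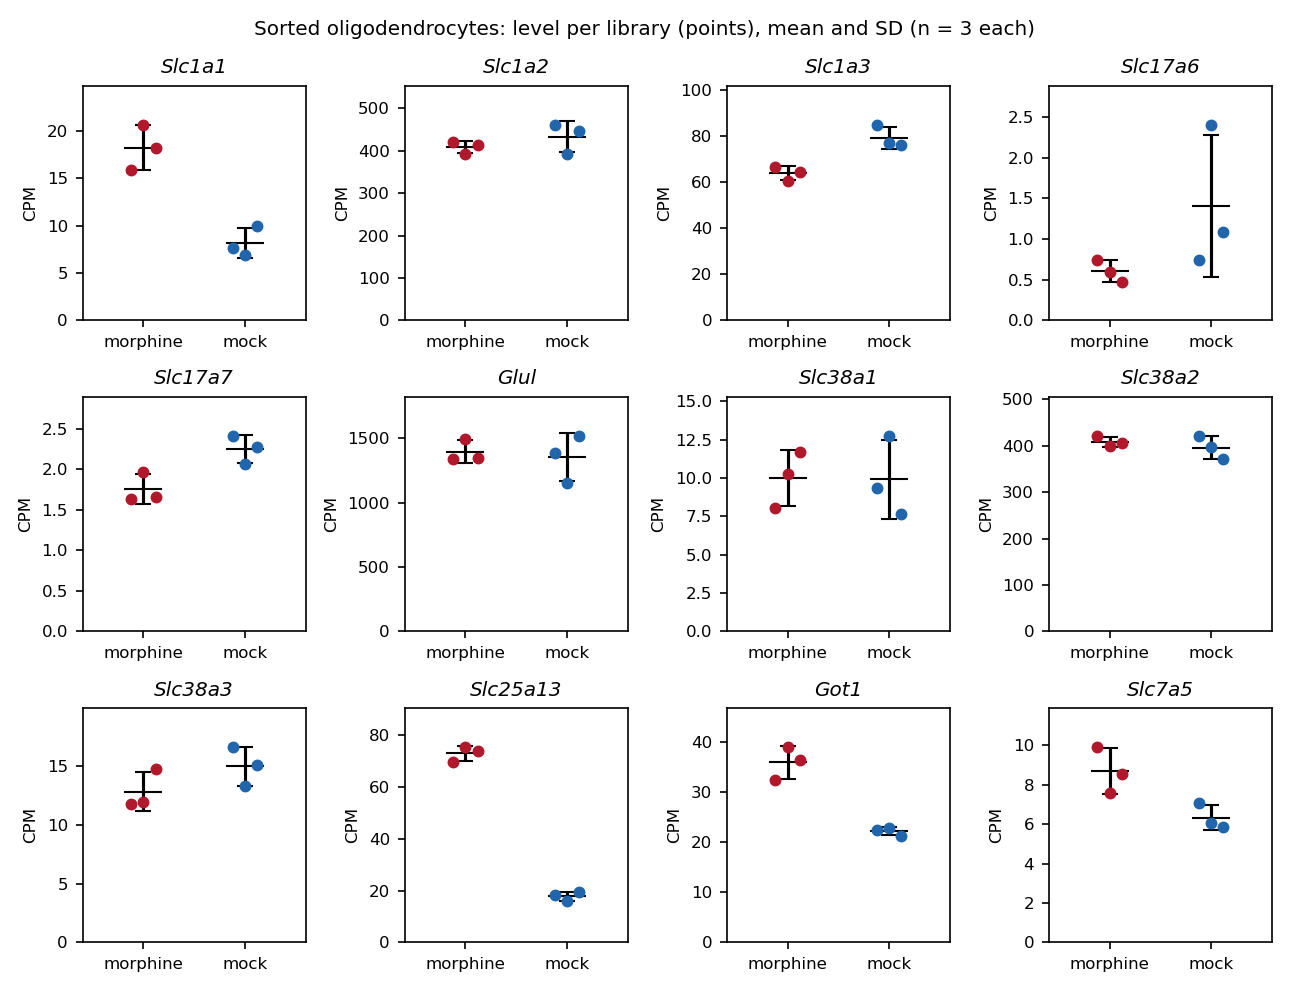
CPM in each sorted oligodendrocyte library (points), with mean and SD, morphine on the left and mock on the right, for the 9 genes and for 3 further genes of the glutamate, glutamine and GABA cycle. Slc1a1, Slc25a13, Got1 and Slc7a5 are higher in all 3 morphine libraries, and Slc1a3 is lower in all 3.

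In bulk libraries fewer cells of a type and less RNA per cell cannot be told apart, so markers of other cells were read in the same libraries. Newly formed oligodendrocytes, which hold the most Slc1a1 in the accumbens, had marker sums of 421 to 444 CPM in morphine and 413 to 496.5 CPM in mock libraries, which overlapped. Of their 8 markers 1 was higher (Itpr2) and 1 lower (Bcas1). Endothelial markers, from the class second in Slc1a1, were lower in morphine libraries, 44.8 to 60.5 CPM against 72.8 to 75.5 CPM in mock libraries, with 5 of 12 lower and 0 higher. Precursor markers summed to 74.6 to 89.2 CPM in morphine and 70.5 to 83.8 CPM in mock libraries, with 1 of 8 tested higher (Tnr) and Lhfpl3 at 0. Astrocyte markers, beside which Slc1a3 is read, were higher in morphine libraries, with a sum of 476 to 510 CPM against 322 to 397 CPM in mock libraries. Of these 14 markers Fgfr3, Gjb6, F3 and Htra1 were higher and 0 were lower. Ependymal cells and microglia follow astrocytes in Slc1a3. Microglia markers summed to 70.9 to 72.5 CPM in morphine and 69.1 to 83.2 CPM in mock libraries, which overlapped. Of these 12 markers 2 were lower (Cx3cr1 and P2ry12) and 0 were higher. Ependymal markers summed to 8.64 to 11.0 CPM in morphine and 9.14 to 12.3 CPM in mock libraries, with 0 of 4 tested called. The markers of neurons of any kind, whose accumbens classes hold more Slc1a1 than mature oligodendrocytes do, summed to 273 to 297.5 CPM in morphine and 221 to 254 CPM in mock libraries. These sums did not overlap, and of the 12 markers 1 was higher (Tubb3) and 2 were lower (Snhg11 and Map2). The median log2 fold change of the 12 was -0.19, so the higher sum was not shared by most of them. Markers shared by both types of medium spiny neuron also had higher sums, 236 to 248 CPM in morphine and 209 to 223.5 CPM in mock libraries, with 1 of 10 higher (Adcy5) and 1 lower (Meis2). Their median log2 fold change was also below 0, at -0.246. Neuroblast markers, which include Tubb3, summed to 115 to 135 CPM in morphine and 38.6 to 51.9 CPM in mock libraries, with Tubb3 alone called among 6 tested. Excitatory neuron markers summed to 10.4 to 11.2 CPM in morphine and 11.8 to 16.8 CPM in mock libraries, with 0 of 9 tested called. The sums of D1, D2 and interneuron markers overlapped between the groups, with Penk lower and Kit higher. The part of these cells in the differences was not tested.

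Slc1a1 lies on the plus strand of chromosome 19 (chr19:28835049-28913960, GRCm38) and Slc1a3 on the minus strand of chromosome 15 (chr15:8634124-8710764). Exons of 4430402I18Rik overlap Slc1a1 on the other strand, and since no source says whether reads were counted by strand, its reads cannot be told apart from those of Slc1a1. Slc1a2 and Glul have such overlaps too, with Gm13872 and with Teddm2, and Mir8114 lies on the strand of Glul. Promoters of 7 of the 9 genes were matched in RefSeq (GRCm38.p6), and the windows of the 2 genes that changed in the sorted cells are shown, from 250 bases before the start site to 50 after it. The first is chr19:28834885-28835184 on the plus strand and the second chr15:8710758-8711057 on the minus strand; capitals mark AGAACA, a core part of the binding sequence of the glucocorticoid receptor, a hormone-activated transcription factor.
Slc1a1: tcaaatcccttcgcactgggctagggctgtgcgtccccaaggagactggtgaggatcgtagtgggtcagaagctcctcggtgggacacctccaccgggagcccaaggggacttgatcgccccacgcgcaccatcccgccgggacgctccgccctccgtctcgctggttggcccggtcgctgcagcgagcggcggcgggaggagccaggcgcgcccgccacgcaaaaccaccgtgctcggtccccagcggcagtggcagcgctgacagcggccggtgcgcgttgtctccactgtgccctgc
Slc1a3: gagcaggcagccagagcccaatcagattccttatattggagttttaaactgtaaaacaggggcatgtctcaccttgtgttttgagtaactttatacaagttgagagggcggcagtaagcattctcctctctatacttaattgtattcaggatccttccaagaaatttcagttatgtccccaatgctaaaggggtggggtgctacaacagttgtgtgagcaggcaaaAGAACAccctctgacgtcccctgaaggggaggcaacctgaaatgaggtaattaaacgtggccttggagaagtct

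The windows differ in base composition. That of Slc1a1 is 70.3% G and C with 32 CpG pairs, and that of Slc1a3 45.3% with 3 CpG pairs, where the median of 32851 promoters is 52.7% with 7. Searched on both strands, AGAACA occurs 1 time in the Slc1a3 window and 0 times in that of Slc1a1, and 19.0% of all promoter windows hold it. The TATA box letters TATAAA also occur 1 time in the Slc1a3 window, on the strand opposite to the one printed. They occur 0 times in that of Slc1a1, and 13.6% of all windows hold them. A match of letters is a description and says nothing of binding.

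Among 37 other genes of the glutamate, glutamine and GABA cycle, 31 were tested in the sorted cells, of which 3 rose and 0 fell, beside 8.1% and 6.68% of all genes. Slc25a13, the mitochondrial carrier that exchanges aspartate for glutamate, had 69.4, 75.3 and 73.8 CPM in morphine libraries, against 18.1, 16.01 and 19.3 CPM in mock libraries. Its log2 fold change was 2.05 (SE 0.077, adjusted p = 5.18e-14). Every morphine library lay far above every mock library. Got1, which moves the amino group between glutamate and aspartate in the cytosol, averaged 35.9 ± 3.26 CPM in morphine and 22.1 ± 0.823 CPM in mock libraries (0.72, adjusted p = 1.38e-06). Slc7a5, an exchanger of large neutral amino acids and glutamine, averaged 8.68 ± 1.17 CPM in morphine and 6.32 ± 0.64 CPM in mock libraries (0.48, adjusted p = 0.0307). Slc7a5 lost its call with DESeq2 (adjusted p = 0.0606) and without mock library 3, morphine library 1 or morphine library 3 (adjusted p = 0.0695 to 0.191). The median of the 31 genes was 0.02.

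In the accumbens 82 of the 126 pairs of gene and class passed the filter on low counts, and 0 of the 82 were called with edgeR, morphine against mock. Of all genes in these 14 classes 0.0115% were called. At an unadjusted p of 0.05, 3 pairs passed, or 2 lower and 1 higher, where 3.03% of all gene and class pairs did. DESeq2 also called 0 of the 82. In 37 pairs the morphine pools were higher and in 45 lower. With the replicate number as a block, 8 of the 82 had an unadjusted p under 0.05, 5 higher and 3 lower. Over all pairs 5.8% did. The block called 1 pair, Slc1a3 in dividing progenitors, whose numbers did not pair, beside 0.266% of all pairs. Glul in oligodendrocytes (log2 fold change 0.26, adjusted p = 0.37) and Slc1a3 in microglia (0.61, adjusted p = 0.456) were not called. Nor was Slc38a3 in oligodendrocyte precursors (-0.52, adjusted p = 0.698) or Slc38a2 in endothelial cells (0.47, adjusted p = 0.584). Glul in dividing progenitors was higher in morphine pools and was not called either. In the sum of all cells 0 of the 9 genes were called with edgeR or DESeq2, beside 0.0% of all genes with edgeR, and 0 had an unadjusted p under 0.05.

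In astrocytes the uptake and synthesis genes overlapped between the 2 groups. Slc1a2 averaged 6777 ± 742 CPM in morphine and 7621 ± 579 CPM in mock pools (log2 fold change -0.09, SE 0.148). Slc1a3 averaged 4226 ± 409 CPM in morphine and 4613 ± 233 CPM in mock pools (-0.04, SE 0.144). Glul averaged 4066 ± 215 CPM in morphine and 4015 ± 352 CPM in mock pools (0.10, SE 0.143). None of the 3 passed, each with an adjusted p of 0.999, and 0.0369% of all genes were called in astrocytes. In CPM, Slc1a2 and Slc1a3 were each lower in the morphine pool of all 4 same-numbered pairs. Blocking on the replicate number gave -0.09 for Slc1a2 (SE 0.09, adjusted p = 0.891) and -0.05 for Slc1a3 (SE 0.092, adjusted p = 0.954). Slc38a3 averaged 268 ± 60 CPM in morphine and 291 ± 107 CPM in mock pools (-0.04, SE 0.232).

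The genes that differed in the sorted cells were then read in the accumbens oligodendrocytes, where 8 of the 9 genes were tested, 0 were called, and 0.0789% of all genes were called. Slc1a1 had 19.4, 17.6, 24.1 and 9.88 CPM in morphine pools 1 to 4, against 24.4, 8.49, 10.3 and 11.5 CPM in mock pools 1 to 4. The groups overlapped, and the log2 fold change of 0.57 (SE 0.365, adjusted p = 1) rested on 131 UMIs. With the replicate number as a block, Slc1a1 stood at 0.56 (SE 0.308, adjusted p = 0.571) and was not called either. Within age groups no fit was made. The plain difference of mean log2 CPM of Slc1a1, with a prior count of 1, was 0.46 among older and 0.34 among younger pools. Slc1a3 averaged 102 ± 33.6 CPM in morphine and 118 ± 57.2 CPM in mock pools (-0.10, SE 0.289). With the block Slc1a3 stood at -0.07 (SE 0.134, adjusted p = 0.939). Whether the change differs between the sorted and the accumbens cells was not tested, since the 2 assays share no fit.

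Slc25a13 had 84.9, 101, 86.1 and 119 CPM in the accumbens oligodendrocytes of morphine pools 1 to 4, against 30, 55.8, 24.8 and 96.1 CPM in those of mock pools 1 to 4. Its groups overlapped through mock pool 4, and the log2 fold change was 0.93 (SE 0.298, adjusted p = 0.636). With the replicate number as a block it passed, at 0.98 (adjusted p = 0.000929), where 1.75% of all genes were called. Without mock pool 4 and without the block, Slc25a13 stood at 1.41 (adjusted p = 0.038). Without the filter on low counts and without the block it stood at 0.90 (adjusted p = 0.00415), where 54 of 18030 genes were called. These 3 were the only ones of 14 alternatives in which Slc25a13 passed. Over the 14 its log2 fold change ran from 0.71 to 1.41 and its adjusted p up to 0.999. Got1 averaged 79.7 ± 25.6 CPM in morphine and 74.9 ± 9.95 CPM in mock pools (0.16, adjusted p = 1). Of the other cycle genes 205 pairs of gene and class were tested over the 14 classes and 0 were called with edgeR with the filter and without the block.

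**Figure D5:**
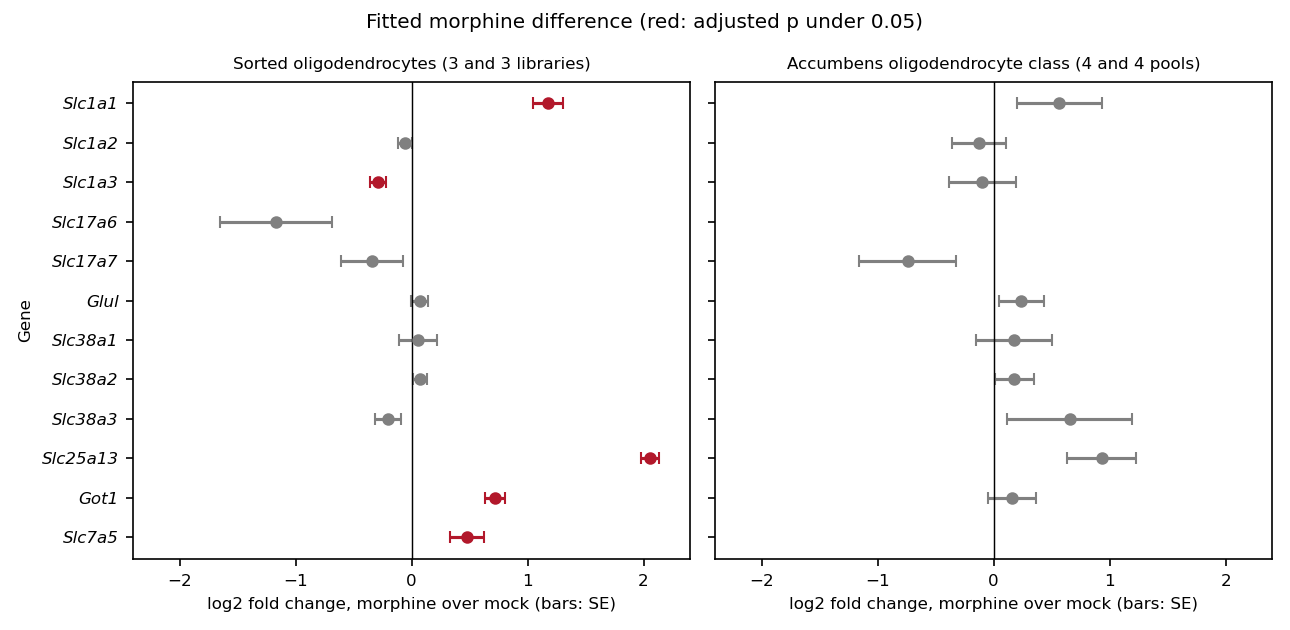
Fitted log2 fold change, morphine over mock (horizontal axis, bars are SE), for the 9 genes and 3 further cycle genes in sorted oligodendrocytes (left) and in the accumbens oligodendrocyte class (right); red marks an adjusted p under 0.05. Slc1a1 is at 1.18 in the sorted cells and at 0.57 in the accumbens class, and Slc17a6 and Slc7a5 were tested in the sorted cells alone.

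The 3 pairs with an unadjusted p under 0.05 without the block were Slc1a3 in dividing progenitors and Slc1a2 and Slc38a3 in endothelial cells. Slc1a3 had 606, 197, 233 and 414 CPM in dividing progenitors of morphine pools 1 to 4, against 155, 159, 79.6 and 176 CPM in those of mock pools 1 to 4. The groups did not overlap, and the log2 fold change was 1.15 (SE 0.317, adjusted p = 0.734) from 282 UMIs in 303 cells. Astrocyte markers summed to 672 to 1985 CPM in that class in morphine and 769 to 1028 CPM in mock pools, and their part was not tested. Slc1a2 in endothelial cells had 279, 168, 96.1 and 158 CPM in morphine pools, against 406, 285, 248 and 314 CPM in mock pools. The groups overlapped through morphine pool 1, and the log2 fold change was -0.83 (SE 0.261, adjusted p = 0.999). In each of the 4 same-numbered pairs the morphine pool was the lower, and blocking on the replicate number gave -0.85 (SE 0.161, adjusted p = 0.0925), which did not pass either. Astrocyte markers summed to 466 to 1043 CPM in endothelial cells of morphine and 719 to 1090 CPM in those of mock pools, and their part was not tested. Slc38a3 in endothelial cells averaged 175 ± 40.8 CPM in morphine and 284 ± 97.5 CPM in mock pools (-0.61, SE 0.258, adjusted p = 0.999), was also lower in all 4 pairs, and did not pass with the block (-0.53, adjusted p = 0.42).

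Older and younger pools were compared in the same classes and in all cells, with treatment as a covariate. Of 91 tested pairs of gene and class 0 were called with edgeR, beside 0.0911% of all such pairs over all genes. At an unadjusted p of 0.05, 24 of the 91 passed, 22 lower and 2 higher in older pools, where 10.8% of all pairs did. DESeq2 called 3, namely Slc38a2 in endothelial cells and Glul and Slc1a3 in D2 medium spiny neurons, where it called 0.236% of all pairs. Slc38a2 in microglia had 306 and 202 CPM in older morphine and 350 and 213 CPM in older mock pools, against 112 and 139 CPM in younger morphine and 157 and 131 CPM in younger mock pools. Each older pool lay above each younger pool, and the log2 difference of 0.98 missed the threshold (SE 0.264, adjusted p = 0.0756), where 1.21% of all genes were called. In endothelial cells Slc38a2 averaged 301 ± 138 CPM in older and 133 ± 48.8 CPM in younger pools (1.22, SE 0.283, adjusted p = 0.0637), where 0.469% of all genes were called. There morphine pool 3 held 484 CPM and mock pool 3 330 CPM. Morphine pool 4 held 175 CPM and mock pool 4 217 CPM, against 80.1 to 176 CPM in younger pools, so the age groups overlapped. The part of the pools numbered 3 was not tested. In oligodendrocytes, the highest class of Slc38a2, the gene averaged 327 ± 34.1 CPM in older and 318 ± 66.6 CPM in younger pools (0.13, adjusted p = 0.767).

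Several of these pairs were genes of high level in astrocytes, read in other classes. In D2 medium spiny neurons Glul averaged 110 ± 7.3 CPM in older and 189 ± 39.2 CPM in younger pools (-0.74, adjusted p = 0.222), and Slc1a3 27.1 ± 7.33 CPM in older and 66.9 ± 31.5 CPM in younger pools (-1.15, adjusted p = 0.24). Slc1a2 in microglia averaged 279 ± 42.5 CPM in older and 659 ± 380 CPM in younger pools (-1.15, adjusted p = 0.104). The pools numbered 1, whose tables used another annotation, stood apart there, with 1140 CPM in morphine pool 1 and 785 CPM in mock pool 1. The other younger pools held 377 and 334 CPM, close to the older pools at 225 to 327 CPM. Slc1a3 in D2 neurons likewise had 113 CPM in mock pool 1 and at most 60.8 CPM in the other younger pools. In D2 neurons the summed astrocyte markers were at 375 to 633 CPM in older and 573 to 830 CPM in younger pools. In microglia they were at 340.5 to 980.5 CPM in older and 1140 to 2338 CPM in younger pools. The part of these markers in the differences was not tested. Astrocytes themselves held 7700 ± 586 CPM of Slc1a2 in older and 6690 ± 580 CPM in younger pools (0.22, adjusted p = 0.533), and the adjusted p was 0.715 for Slc1a3 (0.14) and 0.711 for Glul (-0.14).

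The profile of each gene over the 14 classes was set beside those of 8763 genes with at least 50 CPM in a class, as a description of these class means, which share their pools and libraries. The 3 most alike by Pearson r were Cldn10 (0.924), Aldoc and Id2 for Slc1a2, F3 (0.96), Acsbg1 and Slc27a1 for Slc1a3, and Selenop (0.922), Pon2 and Fam107a for Glul. For Slc38a3 they were Vcam1 (0.934), Rapgef3 and Smpdl3a, for Slc38a1 Iqcb1 (0.859), Casd1 and Ube2z, and for Slc38a2 Kif13b (0.87), Lbr and Foxn3. Slc17a7 was most like Nrn1 (0.961), Neurod6 and Neurod2, and Slc17a6 most like Scube1 (0.971), Prss12 and Dkkl1. Slc1a1 had weaker partners, Gtf2h1 (0.844), Znrf1 and Jmy. Cldn10, Aldoc, F3, Acsbg1, Nrn1, Neurod6 and Neurod2 are markers used by the gate.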

How the data were processed

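Drop-seq libraries of the nucleus accumbens (4 morphine and 4 mock pools) and bulk RNA-seq libraries of sorted oligodendrocytes (3 and 3) were analysed from the deposited tables. Per the file headers, the deposited values are raw UMI counts of each gene in each barcode for Drop-seq and raw read counts of each gene for the sorted cells, whose libraries are numbered here as the columns of that table are. The build was mm10 and the tools were STAR 2.4.2a, Trimmomatic 0.36, HTSeq, DESeq and DESeq2, per the submitters' processing notes; which of them served which data is not given in the sources used here. A deposited table of the authors holds their log2 fold changes, standard errors and p-values for the sorted cells. Rows naming no gene took 69.5% to 74.3% of sorted reads and were left out, and mitochondrial genes took 15.0% to 16.9% of the reads in genes. Floors cover counting error only, because reads copied by amplification are not separate molecules.

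Of 36000 barcodes, 33216 had 300 or more genes and no more than 20% of UMIs from mitochondrial genes, and these were kept. Pools of replicate 1 used another annotation: 1220 symbols were renamed and 6120 symbols found only there (0.777% of its UMIs) were left out. A cell joined the class with the highest mean scaled marker level if it had at least 3 of its markers and the second class scored under 0.6 of the first; 3839 cells lay near that limit, at 0.5 to 0.7. The 8602 cells outside the gate, which include likely doublets, were left out, and no doublet caller was run. UMIs were summed per pool and class, using pools with at least 10 cells. Perivascular macrophages, with too few cells, and red blood cells, left out by choice, were not tested.

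Sums and reads went into edgeR 4.0.16 and its quasi-likelihood test (R 4.3.3, TMM scaling, filterByExpr, Benjamini-Hochberg adjustment over all genes, threshold 0.05). Adjusted p-values come from that test where no other is named. They measure the spread between these samples, which the labels do not fully trace to separate animals. In simulated counts, 76.5% of 200 genes changed 2-fold among 15750 were recovered in the sorted design and 62.5% among 8870 in the oligodendrocyte class. False calls numbered 5 and 11. The simulation drew each library on its own, with no age effect or pairing. Its shares are over genes of all levels and do not hold for low genes such as Slc1a1 in particular. Alternatives were DESeq2 1.42.0, its size factors, no filter, an age term, the replicate number as a block, Leiden classes (scanpy 1.11.5), all barcodes, a prior count of 5 and leaving out each library. Same-numbered pools matched in age, and their deviations from the group means correlated above 0.1 in every pair in oligodendrocytes (0.208 to 0.545), astrocytes, oligodendrocyte precursors, microglia, endothelial, mural and ependymal cells, which were taken as paired. Fits without the block leave this pairing out, in these classes too. All 9 genes were named, as were cycle genes with an adjusted p under 0.05 in treatment comparisons and the 3 genes most alike to each. The genes and lists were chosen with earlier results of these data known. Of the cycle genes, 1 is not reported here.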

Additional observations from a re-analysis of the deposited data

Results flagged for a closer look

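Glul over all accumbens cells stood at 448 CPM in morphine pool 4, while the other 3 morphine pools lay between 675 and 690 CPM. The gap to the nearest pool was 0.938 of the range of the group, above the Dixon limit for 4 values. The mock pools 1 to 4 had 769, 776, 490 and 429 CPM. Of 62 groups of 4 pools checked in this way this was the only one past the limit, which chance passes in about 1 of 20 groups.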

How the results depend on the processing

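No value reversed its sign while called, under any alternative run. In sorted oligodendrocytes the 2 calls stood with DESeq2, its size factors, no filter and the replicate block. Leaving out 1 library gave 1 to 2 calls, with 1 without mock 1 or without morphine 2. In accumbens classes 1 pair of gene and class was called with the replicate block, Slc1a3 in dividing progenitors (log2 1.25, adjusted p = 0.0238), a class whose numbers did not pair (lowest correlation 0.047). Every other alternative, and leaving out any pool, gave 0 calls in classes and in all cells. The block changed no other call of the 9 genes. In the sorted libraries the numbers did not pair either (correlations of -0.108 to 0.007), nor in all cells, and the block left 2 calls and 0 calls there. Between older and younger pools DESeq2 gave 3 calls and testing without a filter 9. Leaving out 1 pool gave 0 to 1 there, with 1 without mock 4 (Slc38a2 in microglia), without morphine 2 (Slc1a2 in microglia) or without morphine 4 (Slc38a2 in endothelial cells). No paired analysis of age was possible because each number holds 1 age. The count of genes higher in their highest class than in the next was 8, and 6 with Leiden classes, where Slc17a6 (exact p = 0.0469) and Slc17a7 (exact p = 0.0625, the smallest 5 pools allow) missed after adjustment. It was 7 with a prior count of 5 and 7 to 8 without 1 pool. Over all genes, the calls in accumbens oligodendrocytes were 7 with edgeR, 21 with DESeq2 and 155 with the block, and in astrocytes 3, 6 and 42. The causes were not tested. At 131 UMIs of Slc1a1 in accumbens oligodendrocytes, counting limits what can be seen there.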
